A study of Oryza sativa with 12 samples.

Results

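The 9 cellulose synthases of rice, CESA1 to CESA9, were followed across a heat experiment on rice seedlings. They were chosen by locus from the deposited expression table, in which they are 9 of 42004 loci, and all 9 were among the 20305 loci tested. The names and chromosomes of all 9 matched RefSeq gene records, with CESA4 on chromosome 1, CESA2 and CESA5 on 3, CESA1 on 5, CESA3, CESA6 and CESA8 on 7, CESA9 on 9 and CESA7 on 10. The build of the files is not given in the sources used, so no coordinates are printed. Transcripts were sequenced in 12 libraries, 3 in each of 4 groups, to compare the heat response of a line labelled as a grp3/grp162 double mutant with that of the wild type ZH11, a japonica cultivar. The groups are dm_45C (the line labelled double mutant, heated to 45 °C), dm_29C (the same line kept at 29 °C), WT_45C (ZH11 heated to 45 °C) and WT_29C (ZH11 kept at 29 °C). Every group was labelled whole plant and was grown at 29 °C in nutrient solution, and the listed age is 8 days for all 4 groups. The heat lasted 18 h by one label and 42 h by another, so its length is not settled here.

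Cellulose is made at the plasma membrane by rosette complexes of cellulose synthase subunits, which draw on UDP-glucose and extrude glucan chains that assemble into microfibrils. A complex holds different subunits, and plants use separate sets for the extensible primary wall of growing cells and for the thick secondary wall of xylem and fibres. In rice, CESA4, CESA7 and CESA9 form the secondary wall set, and loss of any of them gives brittle culms. CESA1, CESA3 and CESA8 are the usual primary wall set, and CESA2, CESA5 and CESA6 are grouped with it here as further primary wall members.

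The unit is FPKM, in which fragment numbers are scaled by transcript length and by library total, so levels can be set beside each other between genes. The sum of FPKM per library was 558435 to 599861, and the read counts behind the values are unknown. GRP162, 1 of the mutated genes in the name of the line, lay at 12466, 746 and 699 FPKM in dm_45C, 3288, 218 and 265 in dm_29C, 2368, 1605 and 3720 in WT_45C and 1121, 1002 and 1033 in WT_29C, in the order of replicates 1 to 3. Both replicate 1 libraries of the double mutant therefore lay above every wild type library of their temperature, while replicates 2 and 3 lay below. What the mutations do to the transcripts is not known here, so these levels do not settle the genotype of a library. For this reason "the libraries labelled double mutant" is written. GRP3, the other mutated gene, lay at 17604, 10888 and 14023 FPKM in dm_45C, 4340, 1086 and 1355 in dm_29C, 16274, 14427 and 16321 in WT_45C and 5066, 3879 and 5489 in WT_29C. For GRP3, replicates 2 and 3 of the libraries labelled double mutant lay below every wild type library of their temperature, and replicate 1 did not. No label says whether replicates came from separate cultures, so p-values measure the spread between these libraries, which may be technical. The samples are bulk RNA, in which fewer cells of a type and less RNA per cell cannot be told apart. Reads shared between close copies cannot be apportioned from FPKM, which applies to the cellulose synthases as a gene family.

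The secondary wall genes CESA4, CESA7 and CESA9 were near or at 0 in both groups at 29 °C and were measurable in every heated library. CESA4 (LOC_Os01g54620) lay at 3.06, 3.01 and 2.23 FPKM in dm_45C, 0.38, 0.35 and 0.38 in dm_29C, 3.45, 1.41 and 1.75 in WT_45C and 0.43, 0.29 and 0.13 in WT_29C. Every heated library was above every library kept at 29 °C, and the 3 libraries of dm_29C were nearly alike. CESA7 (LOC_Os10g32980) lay at 2.20, 2.37 and 1.85 FPKM in dm_45C, 0.17, 0.29 and 0.00 in dm_29C, 3.02, 1.23 and 0.97 in WT_45C and 0.00, 0.07 and 0.07 in WT_29C. Its heated and unheated libraries also stood apart without overlap, and 1 library of each group at 29 °C listed it at 0. CESA9 (LOC_Os09g25490) lay at 3.72, 3.12 and 2.59 FPKM in dm_45C, 0.03, 0.02 and 0.00 in dm_29C, 4.76, 1.87 and 1.18 in WT_45C and 0.00, 0.11 and 0.00 in WT_29C. This gene was the lowest of the family in dm_29C and the highest of the secondary wall set, by its mean, in both heated groups.

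**Figure D1:**
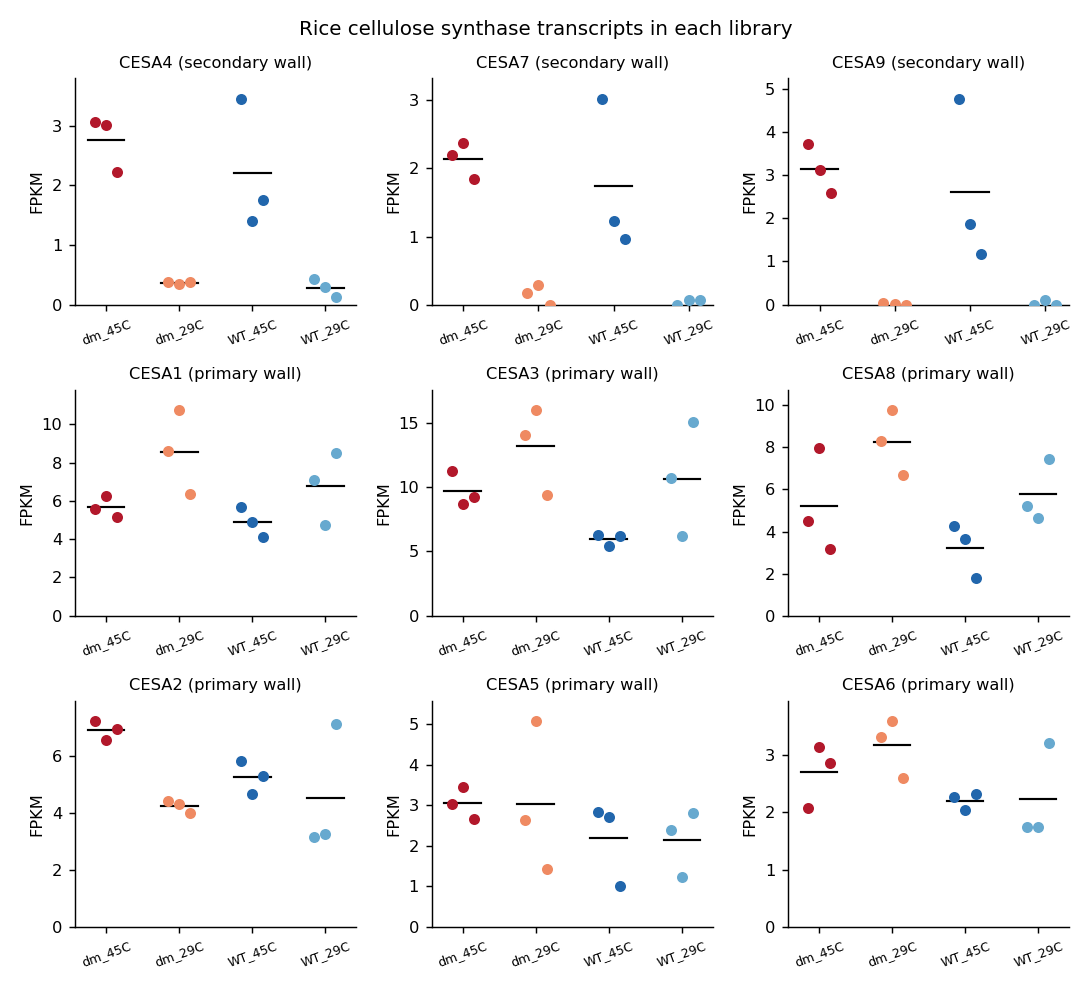
FPKM (linear axes from 0) of each cellulose synthase in the 12 libraries, with 1 point per library and a line at the mean of 3 libraries, left out where a library listed the gene at 0. CESA4, CESA7 and CESA9 lie between 0.97 and 4.76 in heated libraries and at 0.43 or below in all others, while the 6 primary wall genes show no such gap.

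Differences were tested with limma on log2(FPKM + 1), over loci with at least 1 FPKM in at least 3 libraries, with Benjamini-Hochberg adjusted p under 0.05 as the threshold and all loci adjusted together. In the libraries labelled double mutant, CESA4 rose with heat by 1.45 log2 units (SE 0.252, adjusted p = 0.0011), CESA7 by 1.45 (SE 0.27, adjusted p = 0.00169) and CESA9 by 2.02 (SE 0.308, adjusted p = 0.000475). In the wild type, CESA4 rose by 1.27 (SE 0.252, adjusted p = 0.00276), CESA7 by 1.32 (SE 0.270, adjusted p = 0.00343) and CESA9 by 1.67 (SE 0.308, adjusted p = 0.00179). So 3 of 9 members rose and none fell in each comparison. Of all loci, 31.7% passed in the libraries labelled double mutant, 15.3% upward and 16.4% downward, and 29.1% passed in the wild type, 13.3% upward and 15.8% downward. Heated libraries lay above unheated ones without overlap at 4 members in the libraries labelled double mutant (CESA2 as well as these 3) and below at 1 (CESA1), beside 23.7% and 23.9% of all loci. In the wild type they lay above at these 3 members and below at 1 (CESA8), beside 19.2% and 23.4% of all loci. CESA9 ranked 437 and 713 from the top of the 20305 differences in the libraries labelled double mutant and in the wild type, CESA4 ranked 997 and 1282, and CESA7 ranked 1003 and 1202.

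Adding 1 to the FPKM holds down the differences of genes this low. The mean of CESA4 was 2.77 ± 0.465 FPKM in dm_45C against 0.37 ± 0.0173 in dm_29C, which is 7.48-fold, and 2.20 ± 1.09 in WT_45C against 0.283 ± 0.15 in WT_29C, which is 7.78-fold (SD, n = 3 each). No fold is given for CESA7 and CESA9, since some libraries listed them at 0. With 0.1 added in place of 1, the log2 differences were 2.60 for CESA4, 3.35 for CESA7 and 4.79 for CESA9 in the libraries labelled double mutant, and 2.57, 3.53 and 4.17 for these genes in the wild type. All 3 genes passed the filter on low values through their heated libraries alone. There were 624 tested loci under 1 FPKM in every library at 29 °C, as these genes were. Of these, 62.8% rose with heat in dm_45C against dm_29C and 57.2% in WT_45C against WT_29C. Such loci can pass the filter only through heated libraries, so the filter itself selects for rises among them.

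WT_45C replicate 1 held the highest value of all 12 libraries for each of CESA4, CESA7 and CESA9. Without it, the WT_45C means were 1.58 FPKM for CESA4, 1.1 for CESA7 and 1.53 for CESA9, and the log2 differences in the wild type were 1.01 (adjusted p = 0.0137), 1.0 (adjusted p = 0.0146) and 1.27 (adjusted p = 0.00505). The 3 rises also held in the libraries labelled double mutant when both replicate 1 libraries, in which GRP162 lay above the wild type, were left out, with adjusted p = 0.0158 for CESA4, 0.0183 for CESA7 and 0.00837 for CESA9.

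None of the 6 primary wall genes passed in either heat comparison with limma. At an unadjusted p under 0.05 there was 1 of 6 in the libraries labelled double mutant (CESA2) and 2 of 6 in the wild type (CESA3 and CESA8). The share of all loci at that cut was not computed. Even at the stricter adjusted threshold, 31.7% of all loci passed in the libraries labelled double mutant and 29.1% in the wild type. The counts are therefore not read as a response of the primary wall genes. CESA3 (LOC_Os07g24190) lay at 11.27, 8.68 and 9.21 FPKM in dm_45C, 14.06, 15.97 and 9.41 in dm_29C, 6.31, 5.43 and 6.19 in WT_45C and 10.71, 6.18 and 15.05 in WT_29C. It was the most abundant cellulose synthase in every library, and its WT_29C libraries were spread widely. CESA1 (LOC_Os05g08370) lay at 5.58, 6.26 and 5.16 FPKM in dm_45C, 8.60, 10.74 and 6.35 in dm_29C, 5.68, 4.89 and 4.13 in WT_45C and 7.10, 4.76 and 8.49 in WT_29C. All dm_45C libraries were below all dm_29C libraries, while the wild type groups overlapped. CESA8 (LOC_Os07g10770) lay at 4.48, 7.98 and 3.16 FPKM in dm_45C, 8.29, 9.76 and 6.68 in dm_29C, 4.27, 3.63 and 1.78 in WT_45C and 5.2, 4.66 and 7.42 in WT_29C. Here the wild type groups did not overlap, with heat lower, and the groups labelled double mutant did.

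The point estimates of CESA1, CESA3 and CESA8 were below 0 in both heat comparisons without passing the threshold. In the libraries labelled double mutant the log2 difference was -0.50 for CESA1 (95% interval -1.0 to 0.01, adjusted p = 0.124), -0.38 for CESA3 (-0.97 to 0.22, adjusted p = 0.318) and -0.64 for CESA8 (-1.32 to 0.05, adjusted p = 0.142). In the wild type it was -0.38 for CESA1 (-0.88 to 0.13, adjusted p = 0.248), -0.67 for CESA3 (-1.26 to -0.07, adjusted p = 0.0861) and -0.71 for CESA8 (-1.39 to -0.03, adjusted p = 0.109). Single libraries decided the side of the threshold for some of them. CESA3 passed in the wild type without WT_29C replicate 2 (log2 difference -0.98, adjusted p = 0.013), against 0.013 to 0.299 over 22 alternatives, and CESA8 passed in the libraries labelled double mutant without dm_45C replicate 2 (-0.94, adjusted p = 0.0347), against 0.0347 to 0.436 over 22 alternatives.

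The point estimates of CESA2 (LOC_Os03g59340) lay above 0. It lay at 7.23, 6.56 and 6.97 FPKM in dm_45C, 4.42, 4.32 and 4.0 in dm_29C, 5.85, 4.66 and 5.29 in WT_45C and 3.16, 3.28 and 7.13 in WT_29C. Every dm_45C library was above every dm_29C library, and in the wild type WT_29C replicate 3 lay above all heated libraries. Its log2 difference with heat was 0.59 in the libraries labelled double mutant (95% interval 0.07 to 1.12, adjusted p = 0.0801) and 0.25 in the wild type (-0.28 to 0.78, adjusted p = 0.471). Without WT_29C replicate 3, CESA2 passed in both, with an adjusted p of 0.0166 for the libraries labelled double mutant, where that library enters only through the shared spread, and 0.0424 in the wild type, where the log2 difference was then 0.57. In the libraries labelled double mutant it also passed with median-of-ratios scaling (adjusted p = 0.0387), quantile scaling (0.027) and a fit of dm_45C and dm_29C alone (0.032), and its adjusted p ran from 0.0166 to 0.236 over 22 alternatives, so the call depends on the processing.

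CESA5 (LOC_Os03g62090) lay at 3.03, 3.45 and 2.65 FPKM in dm_45C, 2.63, 5.07 and 1.42 in dm_29C, 2.83, 2.70 and 1.02 in WT_45C and 2.39, 1.24 and 2.81 in WT_29C. CESA6 (LOC_Os07g14850) lay at 2.08, 3.14 and 2.87 FPKM in dm_45C, 3.32, 3.59 and 2.60 in dm_29C, 2.26, 2.04 and 2.32 in WT_45C and 1.75, 1.74 and 3.21 in WT_29C. Heated and unheated libraries overlapped for both genes in both genotypes. The log2 differences were 0.10 for CESA5 (95% interval -0.67 to 0.86) and -0.18 for CESA6 (-0.67 to 0.32) in the libraries labelled double mutant, and -0.01 for CESA5 (-0.77 to 0.76) and 0.02 for CESA6 (-0.48 to 0.51) in the wild type. These intervals leave room for a change in either direction. The median over the 6 primary wall genes was -0.28 in the libraries labelled double mutant and -0.19 in the wild type, and over the 3 secondary wall genes it was 1.45 and 1.32, beside -0.01 and -0.04 over all loci tested.

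**Figure D2:**
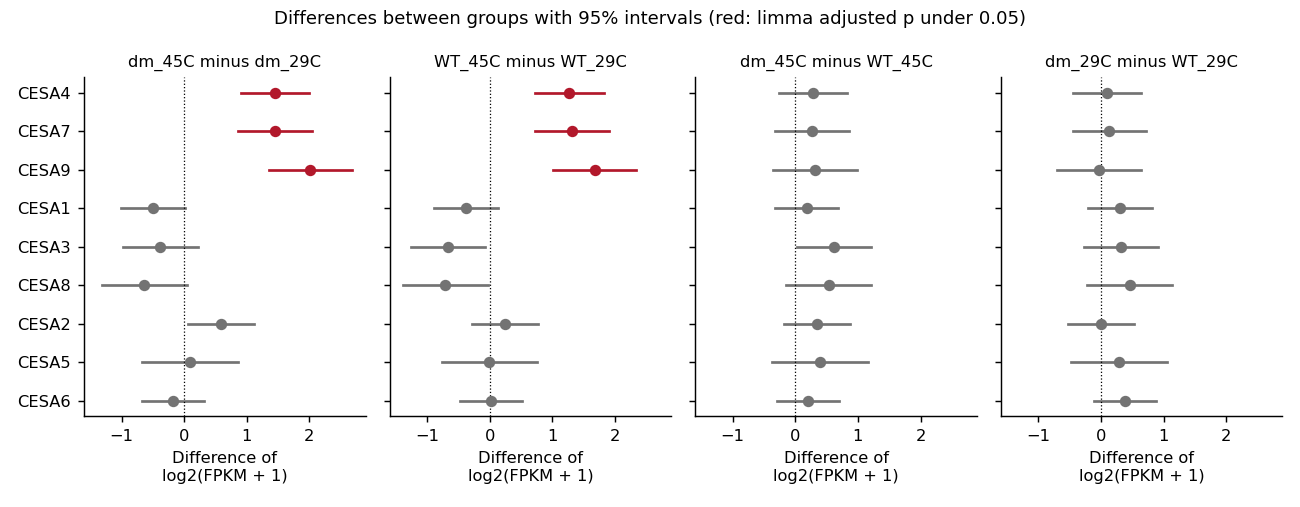
Difference of log2(FPKM + 1) between groups for each cellulose synthase, as limma estimates (points) with 95% intervals (lines), for heat and for genotype. CESA4, CESA7 and CESA9 pass the adjusted p of 0.05 in both heat comparisons (red), and no gene passes in the genotype comparisons (grey).

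The summed level of the family overlapped between temperatures, while the share of its secondary wall genes did not. The 9 genes together came to 41.3 ± 4.11 FPKM in dm_45C, 40.95 ± 9.67 in dm_29C, 30.3 ± 7.22 in WT_45C and 32.5 ± 11.1 in WT_29C (SD, n = 3 each). The secondary wall genes summed to 8.05 ± 1.22 FPKM in dm_45C, 0.540 ± 0.144 in dm_29C, 6.55 ± 4.07 in WT_45C and 0.367 ± 0.146 in WT_29C, and the WT_45C mean was 4.21 without WT_45C replicate 1. Their share of the family's FPKM was 21.1%, 19.1% and 18.2% in the dm_45C libraries, 1.38%, 1.32% and 1.23% in dm_29C, 29.2%, 16.2% and 15.8% in WT_45C and 1.40%, 2.11% and 0.451% in WT_29C. All heated libraries stood far above all unheated ones in this share, and WT_45C replicate 1 stood above the other heated libraries. Without that library the mean share in WT_45C was 16.0%, against 20.4% with it. These sums follow from the single genes and were not tested on their own.

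**Figure D3:**
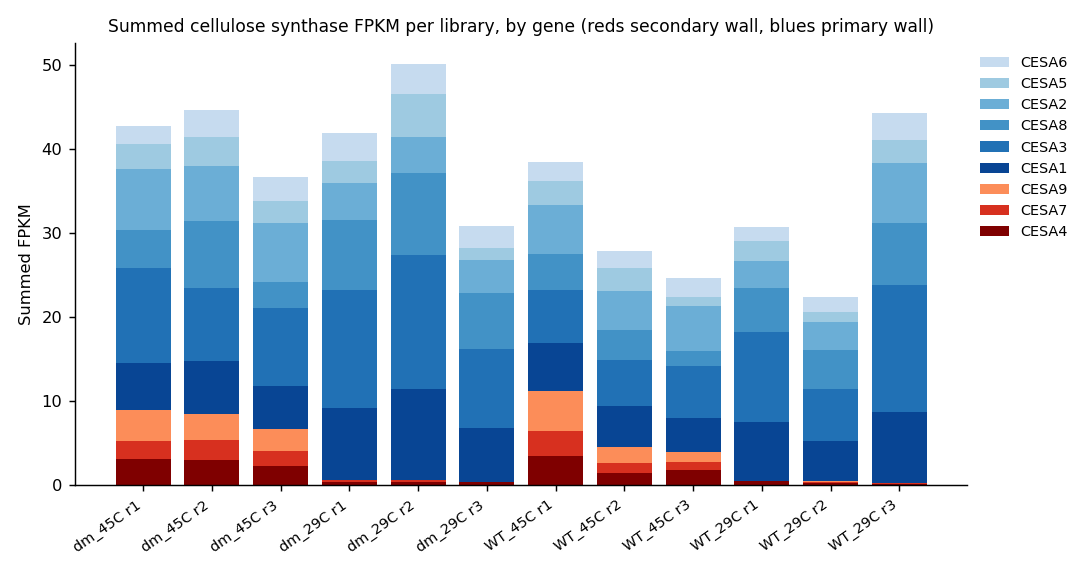
Summed FPKM of the 9 cellulose synthases in each library, stacked by gene, with the secondary wall genes in reds at the base and the primary wall genes in blues. The secondary wall genes take between 15.8% and 29.2% of the sum in heated libraries and 2.11% or less in the others, while the whole bars of heated and unheated libraries overlap in height.

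Within the secondary wall set, the heated libraries held the 3 transcripts in similar proportions. CESA4 made up 33.4% to 35.4% of the set's FPKM in dm_45C and 30.7% to 44.9% in WT_45C, CESA7 made up 24.5% to 27.9% and 24.9% to 27.3%, and CESA9 made up 36.7% to 41.4% and 30.3% to 42.4%. No such proportions are read at 29 °C, where CESA7 and CESA9 were listed at 0 in some libraries. Within the primary wall genes, CESA2 made up 18.2% to 23.2% of the FPKM in dm_45C, against 8.74% to 13.1% in dm_29C, and 20.0% to 25.5% in WT_45C, against 10.4% to 16.2% in WT_29C. The ranges of CESA2 did not overlap in either genotype, although its own FPKM did in the wild type. These shares were not tested, and they also depend on the sum of the primary wall genes. Its mean was 33.3 FPKM in dm_45C, 40.4 in dm_29C, 23.8 in WT_45C and 32.1 in WT_29C. CESA1 made up 16.6% to 17.4% of the primary wall FPKM in dm_45C, against 20.8% to 21.7% in dm_29C, and 19.9% to 20.9% in WT_45C, against 19.3% to 23.4% in WT_29C.

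The order of the levels differed between temperatures. By group means it ran CESA3, CESA2, CESA1, CESA8, CESA9, CESA5, CESA4, CESA6 and CESA7 in dm_45C, and CESA3, CESA1, CESA8, CESA2, CESA6, CESA5, CESA4, CESA7 and CESA9 in dm_29C. In WT_45C it ran CESA3, CESA2, CESA1, CESA8, CESA9, CESA6, CESA4, CESA5 and CESA7, and in WT_29C it was the same as in dm_29C. Many neighbours in these orders had ranges that overlapped between libraries, but some of these kept their order within each library. In WT_29C, CESA3 lay above CESA1, CESA1 above CESA8, CESA8 above CESA2 and CESA2 above CESA6 in 3 of 3 libraries. There CESA6 lay above CESA5 in 2 of 3 libraries and CESA7 above CESA9 in 1 of 3. In dm_45C the only neighbours whose ranges did not overlap were CESA3 and CESA2, and CESA2 and CESA1, and in WT_45C all neighbours overlapped. At 29 °C, CESA5 stood clear of CESA4, and CESA4 of CESA7, in both genotypes, and in dm_29C CESA8 also stood clear of CESA2 and CESA2 of CESA6. Among all loci tested, the mean of CESA3 lay above 53.8% in dm_45C, 61.9% in dm_29C, 42.9% in WT_45C and 56.4% in WT_29C, so the most abundant cellulose synthase was a gene of middling level. CESA9 lay above 26.8% of them in dm_45C, 0.606% in dm_29C, 25.3% in WT_45C and 1.27% in WT_29C.

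The 3 secondary wall genes varied together among the 6 heated libraries. On log2(FPKM + 1), CESA7 and CESA9 had Pearson's r = 0.977 (exact permutation p = 0.00278, adjusted p = 0.0125) and Spearman's rho = 0.943 (exact p = 0.0167, adjusted p = 0.0375), and r was 0.910 without the 2 libraries farthest from the median. CESA4 and CESA7 had r = 0.933 (exact permutation p = 0.00694, adjusted p = 0.0208) and rho = 0.886 (exact p = 0.0333, adjusted p = 0.0429), with r = 0.908 without 2 libraries. CESA4 and CESA9 had r = 0.894 (exact permutation p = 0.0167, adjusted p = 0.025) and rho = 0.943 (exact p = 0.0167, adjusted p = 0.0375), with r = 0.909. WT_45C replicate 1 was high and WT_45C replicates 2 and 3 low for all 3 genes. The libraries left out were WT_45C replicates 2 and 3 for each pair, so WT_45C replicate 1 stayed in. The values of 1 library share its scaling and its plants, and 9 relations were computed in this family.

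Among the primary wall genes, CESA1 and CESA3 varied together in the 6 libraries at 29 °C, with r = 0.974 (exact permutation p = 0.00278, adjusted p = 0.0125), rho = 0.943 (exact p = 0.0167, adjusted p = 0.0375) and r = 0.984 without 2 libraries. For CESA1 and CESA8 at 29 °C r was 0.903 (exact permutation p = 0.0139, adjusted p = 0.025) and rho 0.943 (exact p = 0.0167, adjusted p = 0.0375), but r was 0.64 without dm_29C replicate 2 and WT_29C replicate 2. CESA3 and CESA8 at 29 °C had r = 0.869 (exact permutation p = 0.025, adjusted p = 0.0321) and rho = 0.886 (exact p = 0.0333, adjusted p = 0.0429), with r = 0.652 without the same libraries, so both relations of CESA8 rest in part on these libraries. In the heated libraries CESA1 and CESA8 had r = 0.950 (exact permutation p = 0.0111, adjusted p = 0.025) and rho = 0.886 (exact p = 0.0333, adjusted p = 0.0429), with r = 0.756 without 2 libraries. The relations of CESA3 at 45 °C did not pass. With CESA1 r was 0.501 (exact permutation p = 0.319, adjusted p = 0.359) and rho 0.486 (exact p = 0.356, adjusted p = 0.4), with r = 0.409 without 2 libraries. With CESA8 r was 0.395 (exact permutation p = 0.451, adjusted p = 0.451) and rho 0.429 (exact p = 0.419, adjusted p = 0.419), with r = 0.491 without 2 libraries. All dm_45C libraries lay above all WT_45C libraries in CESA3, and for deviations from the group means r was -0.11 with CESA1 and -0.31 with CESA8.

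**Figure D4:**
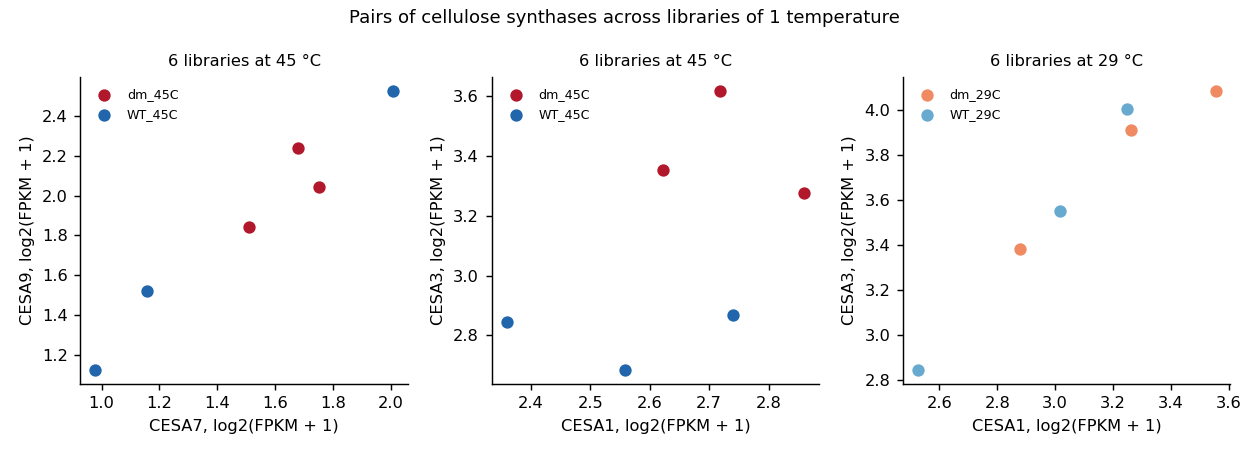
Log2(FPKM + 1) of pairs of cellulose synthases, with 1 point per library and colours for the groups of 1 temperature. CESA7 and CESA9 lie along a line in the heated libraries (r = 0.977), CESA1 and CESA3 do at 29 °C (r = 0.974), and at 45 °C CESA3 separates dm_45C from WT_45C.

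Between genotypes, none of the 9 genes passed at either temperature. At 29 °C the share of all loci that passed was 0.241%, no member had an unadjusted p under 0.05 in limma, and the log2 differences, dm_29C minus WT_29C, had adjusted p between 0.641 and 1. CESA8 had the largest, at 0.46 (95% interval -0.22 to 1.14), with a mean of 8.24 ± 1.54 FPKM in dm_29C and 5.76 ± 1.46 in WT_29C (SD, n = 3 each). No member's groups were free of overlap at 29 °C, where 8.66% of all loci were higher and 5.42% lower without overlap. CESA9 differed by -0.03 (-0.69 to 0.64) and CESA4 by 0.10 (-0.45 to 0.65).

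At 45 °C the share of all loci that passed was 0.0197%, 4 loci in all and 1 with the replicate number as a block, and no member passed with or without the block. All 9 point estimates, dm_45C minus WT_45C, were above 0, between 0.18 for CESA1 and 0.61 for CESA3, with adjusted p between 0.616 and 0.877. The median over all loci was also above 0 but smaller, at 0.059, and 0.0024 with median-of-ratios scaling. The 9 estimates stayed above 0 in every alternative, the lowest being 0.018 for CESA9. No member passed and the genes share their libraries, so the shared sign is not read as a difference of the family. Its cause was not tested. CESA3 averaged 9.72 ± 1.37 FPKM in dm_45C and 5.98 ± 0.477 in WT_45C, with a 95% interval of 0.02 to 1.21 for the log2 difference and an adjusted p of 0.616, and it was the 1 member with an unadjusted p under 0.05 in limma (0.0435). CESA2 averaged 6.92 ± 0.338 FPKM in dm_45C and 5.27 ± 0.595 in WT_45C, a log2 difference of 0.34 (-0.19 to 0.87, adjusted p = 0.756). These 2 of 9 genes were higher in dm_45C without overlap, beside 9.31% of all loci, and no member was lower without overlap, beside 3.96%. The secondary wall genes overlapped between genotypes, with differences of 0.28 for CESA4 (-0.27 to 0.82), 0.27 for CESA7 (-0.32 to 0.85) and 0.32 for CESA9 (-0.35 to 0.99).

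The difference between the heat responses, dm_45C minus dm_29C less WT_45C minus WT_29C, did not pass for any member, and no member had an unadjusted p under 0.05 in limma, with adjusted p between 0.976 and 0.995, where 0.0148% of all loci passed. It was 0.18 for CESA4 (95% interval -0.60 to 0.95), 0.13 for CESA7 (-0.69 to 0.96) and 0.34 for CESA9 (-0.60 to 1.29), and these intervals leave room for a difference in either direction. For the primary wall genes the estimates lay between -0.20 for CESA6 (-0.90 to 0.51) and 0.34 for CESA2 (-0.40 to 1.09).

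The loci with profiles most like the members were ranked by Pearson's r over the 12 libraries, among 13035 loci with a mean of at least 5 FPKM. For the secondary wall set, whose libraries split by temperature, r mostly measures the same split. Heated and unheated libraries of CESA1, CESA3 and CESA8 partly overlapped, so their r also holds variation within a temperature. No p is given with r for either profile. For the secondary wall set the nearest was LOC_Os10g02920 (r = 0.984), at 24.4 to 39.6 FPKM in dm_45C, 5.05 to 5.66 in dm_29C, 16.8 to 30.6 in WT_45C and 3.82 to 4.94 in WT_29C. After it came LOC_Os03g24184 (r = 0.970), LOC_Os03g05830 (0.967), LOC_Os11g05930 (0.967) and LOC_Os12g23780 (0.964). For CESA1, CESA3 and CESA8 the nearest were LOC_Os05g05150 (r = 0.958), LOC_Os03g61760 (0.954), LOC_Os11g02770 (0.951), LOC_Os04g55560 (0.947) and LOC_Os07g38940 (0.941). CESA2 had r = 0.658 with the secondary wall profile and -0.03 with that of the primary wall set, and r was 0.637 for CESA5 and 0.675 for CESA6 with the profile of CESA1, CESA3 and CESA8.

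Genes that work beside the cellulose synthases were counted against the share of all loci, of which 15.3% rose and 16.4% fell in the libraries labelled double mutant and 13.3% rose and 15.8% fell in the wild type. Of 10 listed partners of cellulose assembly 9 were tested; 2 rose and 1 fell in the libraries labelled double mutant, and 1 rose and 1 fell in the wild type, with medians of 0.32 and 0.20, beside -0.01 and -0.04 over all loci. With so few genes, these counts are not read as differing from the shares of all loci. LOC_Os02g50550 fell in both, with log2 differences of -0.85 for dm_45C minus dm_29C (adjusted p = 0.00251) and -1.19 for WT_45C minus WT_29C (adjusted p = 0.000347). LOC_Os05g07790 rose in both, by 0.72 for dm_45C minus dm_29C (adjusted p = 0.0437) and 0.83 for WT_45C minus WT_29C (adjusted p = 0.0248). LOC_Os09g02650 rose by 0.72 in the libraries labelled double mutant (adjusted p = 0.0207). The call of LOC_Os05g07790 in the libraries labelled double mutant was kept in 9 of 22 alternatives only. Of 8 listed genes of substrate supply 6 were tested, with 1 rise and 3 falls in the libraries labelled double mutant and 1 of each in the wild type. SUS4, a sucrose synthase, an enzyme that makes UDP-glucose from sucrose, lay at 24.1, 31.4 and 36.0 FPKM in dm_45C, 15.9, 12.9 and 9.39 in dm_29C, 45.0, 56.9 and 38.5 in WT_45C and 16.8, 15.3 and 26.2 in WT_29C. Within each genotype every heated library was above every unheated one, and SUS4 rose by 1.21 for dm_45C minus dm_29C (adjusted p = 0.00318) and by 1.25 for WT_45C minus WT_29C (adjusted p = 0.00296). Its relative SUS6 fell in both, with differences of -1.3 for dm_45C minus dm_29C (adjusted p = 0.00201) and -0.93 for WT_45C minus WT_29C (adjusted p = 0.0143), and SUS2 fell in the libraries labelled double mutant (-0.93, adjusted p = 0.017).

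Among other genes of the secondary wall, 1 of 18 tested rose and 4 fell in the libraries labelled double mutant, where 15.3% of all loci rose and 16.4% fell. In the wild type none rose and 3 fell, where 13.3% of all loci rose and 15.8% fell, so the falls were near the share of all loci. Of 9 listed secondary wall transcription factors 4 were tested, none rose, and 1 fell in each heat comparison: LOC_Os08g01330 in the libraries labelled double mutant (-2.53, adjusted p = 0.00811) and LOC_Os09g36250 in the wild type (-1.11, adjusted p = 0.0185). Of 4 xylan synthesis genes 3 were tested; LOC_Os01g70200 rose by 0.66 in the libraries labelled double mutant (adjusted p = 0.0304), and IRX14 and IRX9L, members of the xylan backbone machinery, did not pass in either. Of 12 lignin synthesis genes 11 were tested, none rose, 3 fell in the libraries labelled double mutant and 2 in the wild type, with medians of -0.47 and -0.05. HCT1, an acyltransferase of monolignol synthesis, fell in the libraries labelled double mutant (-1.14, adjusted p = 0.0116) and in the wild type (-1.04, adjusted p = 0.0194), and LOC_Os06g06980 also fell in the libraries labelled double mutant (-0.98, adjusted p = 0.00758) and in the wild type (-0.84, adjusted p = 0.0174).

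Of the cellulose synthase-like relatives and expansins, 4 of 15 tested fell in the libraries labelled double mutant and 3 of 15 in the wild type, beside 16.4% and 15.8% of all loci, and none rose. Of 5 CSLD genes 2 were tested and CSLD1 fell in the wild type (-0.71, adjusted p = 0.0371). Of 10 CSLF and CSLH genes, whose products make mixed-linkage glucan, 2 were tested, CSLH1 and CSLF6, and neither passed. Of 13 CSLA and CSLC genes, for mannan and xyloglucan backbones, 7 were tested and 2 fell in each comparison. CSLA3 fell in both (-1.53 for dm_45C minus dm_29C, adjusted p = 0.00922, and -1.48 for WT_45C minus WT_29C, adjusted p = 0.012), CSLC2 fell in the wild type (-1.08, adjusted p = 0.00284), and LOC_Os02g51060 fell in the libraries labelled double mutant (-1.42, adjusted p = 0.00471). Of 7 expansins, proteins that loosen walls in growing tissue, 4 were tested, and EXPB3 and EXPA4 fell in the libraries labelled double mutant (-2.36, adjusted p = 0.0307, and -2.52, adjusted p = 0.012). No gene of any of these lists passed in a genotype comparison or in the difference between the heat responses. Without both replicate 1 libraries labelled double mutant, the falls there of SUS2, LOC_Os08g01330, HCT1, CSLA3, LOC_Os02g51060, EXPB3 and EXPA4 and the rises of LOC_Os05g07790, LOC_Os09g02650 and LOC_Os01g70200 did not pass. Leaving out 1 of the libraries labelled double mutant also ended the calls of LOC_Os05g07790, LOC_Os09g02650, SUS2, LOC_Os01g70200, HCT1 and EXPB3 there. In the wild type, the calls of LOC_Os05g07790, SUS6, LOC_Os06g06980, HCT1, CSLD1 and CSLA3 ended without WT_45C replicate 1, and that of LOC_Os09g36250 without WT_29C replicate 2 or 3 or WT_45C replicate 3. CESA4, CESA7 and CESA9 kept their calls without any 1 library.

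**Figure D5:**
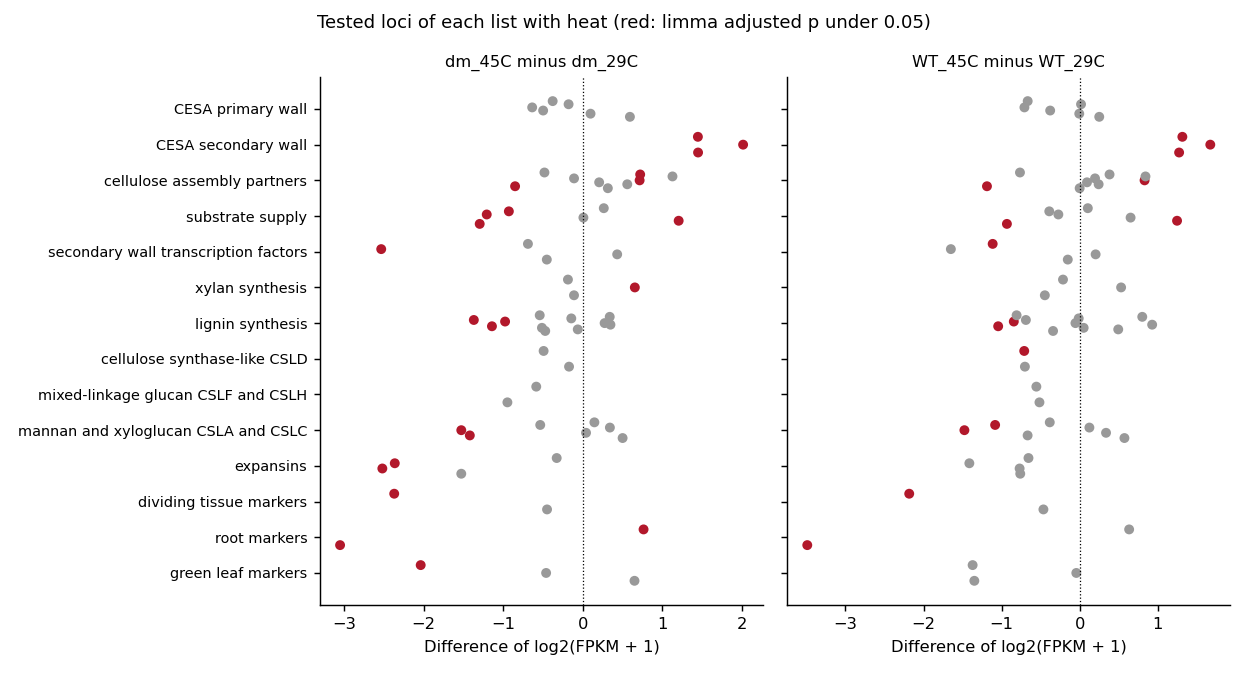
Difference of log2(FPKM + 1) with heat for every tested locus of each list, dm_45C minus dm_29C on the left and WT_45C minus WT_29C on the right, with 1 point per locus and red for adjusted p under 0.05. The 3 secondary wall cellulose synthases lie between 1.27 and 2.02, to the right of all other listed loci in both panels.

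Some markers of other tissue states moved with heat beside these genes. Of all loci, 15.3% rose and 16.4% fell in the libraries labelled double mutant, and 13.3% rose and 15.8% fell in the wild type. With so few markers tested, their counts are not read as differing from these shares. Of 4 dividing tissue markers 2 were tested and MCM2, a subunit of the replicative helicase, fell in both comparisons, with differences of -2.37 for dm_45C minus dm_29C (adjusted p = 0.00013) and -2.18 for WT_45C minus WT_29C (adjusted p = 0.000244), while PCNA did not pass. The summed level of the 4 was 13.3 to 19.8 FPKM in dm_45C, 31.5 to 38.3 in dm_29C, 14.5 to 16.6 in WT_45C and 27.6 to 37.5 in WT_29C. Of 8 root markers 2 were tested and 2 were at 0 in all 12 libraries, and Lsi1, the silicon channel of roots, fell in both, with differences of -3.05 for dm_45C minus dm_29C (adjusted p = 3.23e-05) and -3.49 for WT_45C minus WT_29C (adjusted p = 1.51e-05), while LOC_Os07g12900 rose by 0.77 in the libraries labelled double mutant (adjusted p = 0.0402), a call kept in 12 of 21 alternatives. The root markers summed to 3.9 to 8.8 FPKM in dm_45C, 37.7 to 53.2 in dm_29C, 2.55 to 3.64 in WT_45C and 25.7 to 39.9 in WT_29C. Lsi1 alone lay at 2.13 to 6.45 FPKM in dm_45C, 36.3 to 52.6 in dm_29C, 1.36 to 2.14 in WT_45C and 24.35 to 38.6 in WT_29C. The 3 green leaf markers summed to 670 to 2716 FPKM in dm_45C, 3174 to 3893 in dm_29C, 1465 to 2476 in WT_45C and 1638 to 4935 in WT_29C. Of these LOC_Os12g17600 fell in the libraries labelled double mutant (-2.04, adjusted p = 0.0115), a call that ended without both replicate 1 libraries. RCA (-0.46, adjusted p = 0.496) and LOC_Os01g41710 (0.65, adjusted p = 0.428) did not pass there, and none of the 3 passed in the wild type. The expansins summed to 0.570 to 1.79 FPKM in dm_45C, 3.78 to 46.5 in dm_29C, 0.390 to 0.930 in WT_45C and 0.00 to 18.5 in WT_29C. The part of any of these in the levels of the cellulose synthases was not tested.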

How the data were processed

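The deposited values were FPKM for 42004 loci, with 1 column per library, per the file headers. Without giving their roles, the submitters' processing notes list StringTie 1.3.4d, HISAT2 2.0.4, cutadapt 1.9, edgeR, DESeq2 and UMI-tools; the build is not given in the sources used. Columns of the mutant libraries carry another code than their labels and were assigned by elimination. FPKM are no counts, so limma 3.58.1 in R 4.3.3 was run with an intensity trend on log2(FPKM + 1), over 20305 loci with at least 1 FPKM in at least 3 libraries, with 4 group means and 12 libraries. Adjustment was by Benjamini-Hochberg within each of 5 comparisons. Tables and figures used Python 3.11.15, pandas 2.3.3, numpy 2.4.6, scipy 1.17.1 and matplotlib 3.10.9. No counting interval is given, since depth is unknown. Correlations had two-sided exact permutation tests.

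The members and lists were chosen with earlier results of these data known. All members were named, and of each other list the 3 genes with the highest mean FPKM among those past the threshold, filled with those not past it. A gene that this rule names among the lignin genes is not reported here. LOC_Os03g24184 and other loci near a profile were the 5 with the highest correlation. Names were printed where the RefSeq gene table gave them on the same chromosome (65 of 102), and other loci by their identifier.

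Between dm_45C and WT_45C, deviations from the group means were weakly related for libraries with the same replicate number, with r = 0.106, 0.293 and 0.141. Over all groups, r was above 0.1 in 6 of 18 pairs with the same number and in 1 of 36 others. These values do not settle whether the numbers pair the libraries. The main fit is unpaired, and the replicate block is given beside it. The alternatives were other pseudocounts, filters and scalings, TPM, a replicate block, a fit of only the groups compared, and leaving out libraries.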

Additional observations from a re-analysis of the deposited data

How the results depend on the processing

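The rises of CESA4, CESA7 and CESA9 with heat passed in 21 of 21 alternatives in both genotypes, with adjusted p of 0.000123 to 0.0183 in the libraries labelled double mutant and 0.000524 to 0.0146 in the wild type. In the main fit and in every alternative that kept the filter at 1 FPKM, these 3 genes passed it through their heated libraries alone. The agreement of these alternatives is therefore not independent of that selection. In the fit without a filter, their limma adjusted p was 0.00107 to 0.00362 over both genotypes. The filter at 5 FPKM removed them, CESA5 and CESA6, so it gave no value. No member passed in a genotype comparison or in the difference between heat responses under any alternative, and no called value changed sign. In the libraries labelled double mutant, 6430 loci passed with heat, and 3822 without both replicate 1 libraries. The genotype count at 29 °C was 49, against 24 with 0.1 added and 13 with the filter at 5 FPKM. At 45 °C it was 4, against 2 with that filter, 9 without both replicate 1 libraries, 7 with only the groups compared and 1 with the replicate block. The difference between heat responses gave 3 loci, 1 with the replicate block and 0 with 0.1 added, with the filter at 5 FPKM, with TPM and without both replicate 1 libraries; a fit of only the groups compared is not possible for it. Leaving out 1 library at a time gave 4404 to 6602 loci with heat for the double mutant label, 4139 to 6128 for heat in the wild type, 9 to 64 and 1 to 44 for genotype at 29 °C and at 45 °C, and 0 to 11 for the difference. For these counts the cause was not tested. In the other comparisons the same-number pairs were mixed. For replicates 1 to 3, r was 0.140, 0.046 and 0.135 between dm_45C and dm_29C. It was 0.131, 0.098 and -0.047 between dm_29C and WT_29C, and -0.032, -0.026 and -0.122 between WT_45C and WT_29C. The replicate block changed no call of a member. Depth is unknown, so the lowest values, such as 0.02 FPKM for CESA9, have no counting error here.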
